A study of Drosophila melanogaster with 3 samples.

Results

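The 8 Hox genes of Drosophila melanogaster, lab, pb, Dfd, Scr, Antp, Ubx, abd-A and Abd-B, were examined for sites bound by a tagged protein in embryos. Each gene was taken from the dm6 annotation with 10 kb on both sides, all 8 were found there, and every called summit in these windows was collected. The merged windows covered 497.5 kb of chromosome arm 3R and held 22 of the 3922 sites of the authors' final list, called passing sites here. The protein-coding genes of the chromosome arms, 13945 in all and the 8 included, were the background.

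The data are ChIP-seq, in which DNA bound by a protein is precipitated with an antibody and sequenced. The single group was whole embryos of mixed sex aged 0 to 10 hours, in 3 biological replicates, from a transgenic line that stably expressed CG16815, an uncharacterised protein, with GFP fused to its C terminus, precipitated with an antibody against GFP. The labels give neither the promoter that drives the transgene nor whether the line keeps the untagged gene, and no control library was analysed here. Whole embryos mix all tissues, so sites bound in few cells and weak sites bound in many cannot be told apart.

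Hox genes encode homeodomain transcription factors that give body segments their identity along the head to tail axis. In the fly they lie in a pair of clusters, the Antennapedia complex (lab, pb, Dfd, Scr and Antp) and the bithorax complex (Ubx, abd-A and Abd-B), in the order of the segments they pattern. Their promoters are served by enhancers and silencers spread over long introns and intergenic stretches, boundary elements separate these regulatory domains, and Polycomb and trithorax group proteins keep the genes off or on in each segment.

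The reference sequence of 7 passing sites is printed here because they carry the points made below. They are the strongest passing site of the abd-A, Antp and Abd-B windows, the Hox promoter site, the site nearest to the Dfd promoter, the closest neighbour of another site and a site over the long non-coding RNA gene iab8 that was GC-rich. Each line gives the summit with 50 bp on both sides, from the plus strand of dm6 (RefSeq), in lower case. Capitals mark every match, on either strand, to 1 of the 9 motifs whose letters are given with the motif counts.
abd-A window, intergenic, chr3R:16798857-16798957: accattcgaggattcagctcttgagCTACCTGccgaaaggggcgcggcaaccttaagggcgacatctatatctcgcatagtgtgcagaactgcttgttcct
Antp intron, strongest Antp site, chr3R:6914494-6914594: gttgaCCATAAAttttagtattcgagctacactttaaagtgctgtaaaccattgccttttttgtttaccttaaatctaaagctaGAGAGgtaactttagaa
Antp intron, close neighbour, chr3R:6912696-6912796: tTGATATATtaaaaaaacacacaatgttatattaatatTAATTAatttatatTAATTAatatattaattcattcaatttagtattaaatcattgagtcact
Antp proximal promoter, chr3R:6933091-6933191: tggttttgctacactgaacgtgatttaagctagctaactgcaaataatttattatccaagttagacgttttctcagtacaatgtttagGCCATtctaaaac
Dfd upstream site, chr3R:6791246-6791346: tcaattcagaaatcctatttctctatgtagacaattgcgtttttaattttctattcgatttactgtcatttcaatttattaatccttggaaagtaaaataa
Abd-B intron, chr3R:16958230-16958330: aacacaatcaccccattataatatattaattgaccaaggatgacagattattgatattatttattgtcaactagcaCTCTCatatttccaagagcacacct
Abd-B window, iab8 intron, chr3R:16919206-16919306: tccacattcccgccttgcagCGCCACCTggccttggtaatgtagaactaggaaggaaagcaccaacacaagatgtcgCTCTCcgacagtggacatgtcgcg
The abd-A window site held a match to the Zelda motif and the iab8 site a match to the core of the CTCF motif. The close neighbour in the Antp intron held 2 homeodomain cores and an Exd-Hox composite in a stretch of 12.9% GC, whereas the Dfd site held no match.

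Each region has a signal from the authors' peak caller, of unstated scaling, so levels were compared by rank within a list, with rank 1 the highest. Replicate 1 listed 30000 regions, replicate 2 listed 21989 and replicate 3 listed 27358, and a pooled list held 18764. These lists hold background as well as peaks, and the final list is the 3922 pooled regions with the highest signal. The 3922 best-ranked summits of each replicate, its N best, were used wherever replicates were averaged. Replicate 3 stood apart from the other 2 at these genes, as the counts show, and at some other gene lists described below.

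The Hox windows held passing sites at 44.2 per Mb (95% exact Poisson interval 27.7 to 66.9), against 29.2 per Mb in the rest of the chromosome arms and 29.3 per Mb on 3R. The ratio was 1.51, and the interval included the density of the rest. In the 50% of the final list with the highest signal the windows held 6 sites and the ratio was 0.823, the other direction. The windows held 13 N-best summits of replicate 1, 16 of the second replicate and 35 of the third, a mean of 21.3 ± 11.9 (SD, n = 3). The ratio to the rest was 0.892 in replicate 1, 1.10 in replicate 2 and 2.41 in replicate 3. Replicate 3 was thus the high sample, and without it the mean was 14.5 ± 2.12 (SD, n = 2). The Antennapedia complex windows held 13 passing sites and the bithorax complex windows 9, at ratios of 1.52 and 1.49. Intervals cover counting error only, sites close together are not independent, and sequencing depth is unknown.

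**Figure D1:**
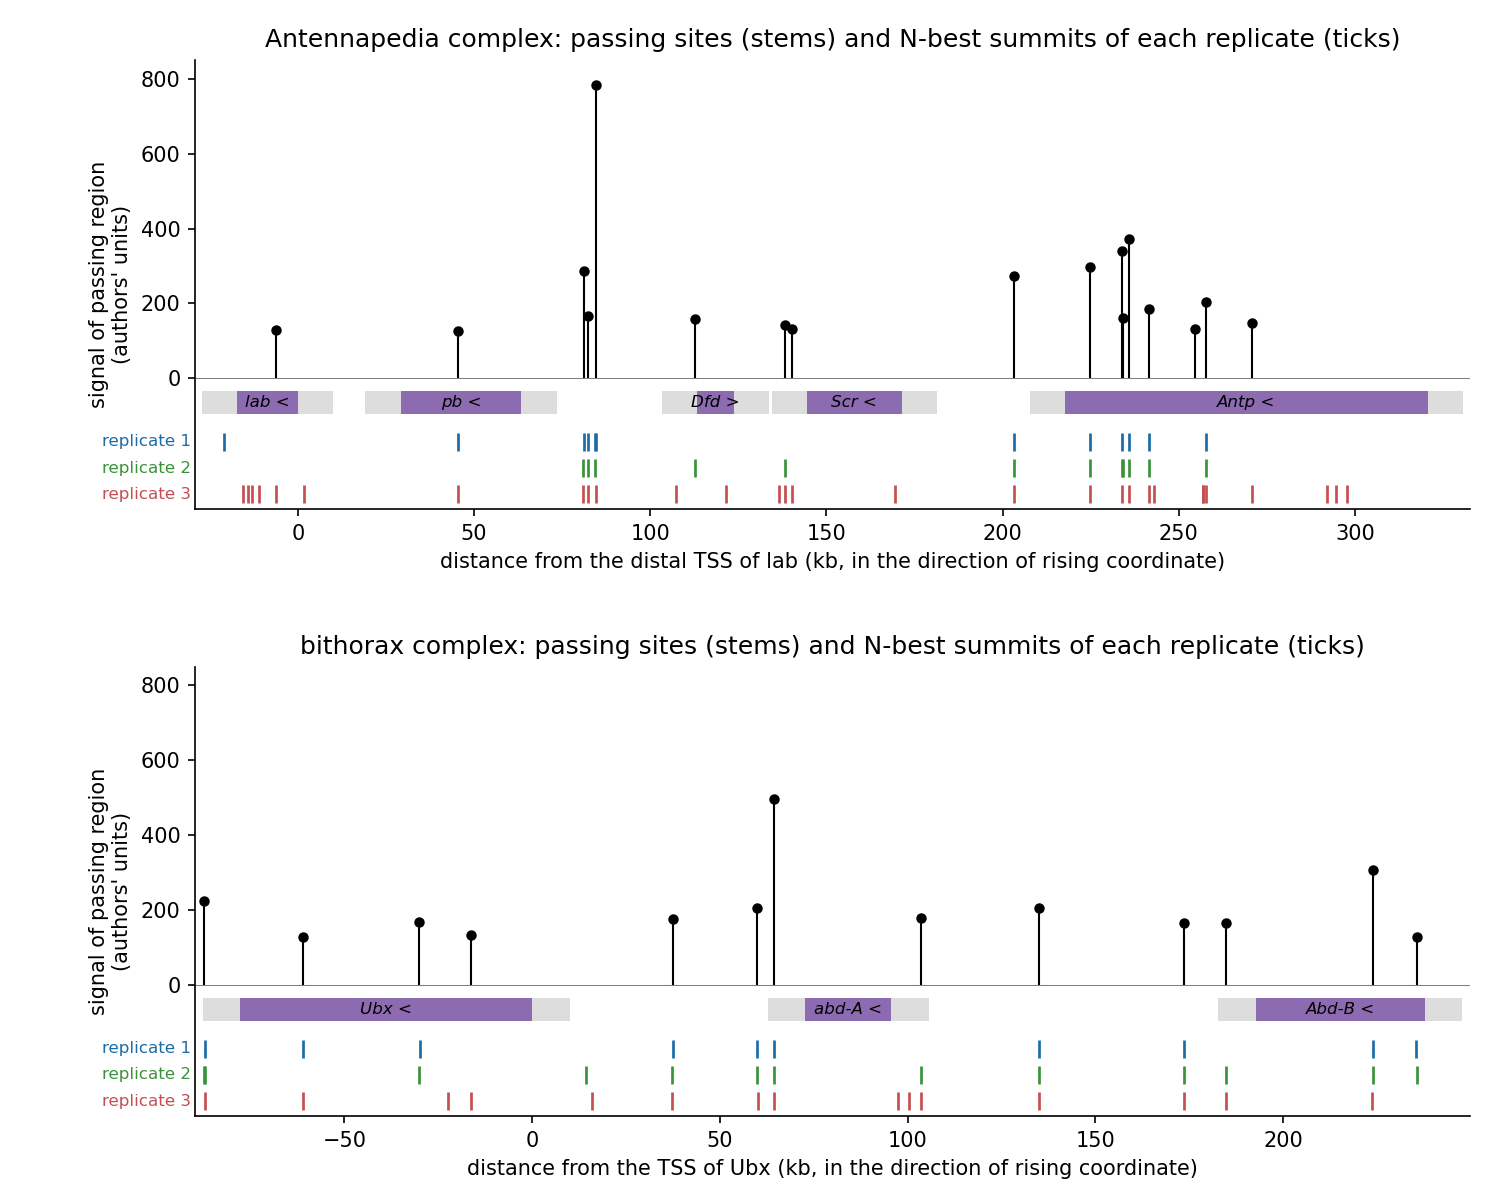
Passing sites (stems, signal in the authors' units) along the Antennapedia and bithorax complexes, against distance in kb from a Hox TSS, with Hox genes in purple, their 10 kb flanks in grey and N-best summits of each replicate as ticks. The strongest site of the Antennapedia complex, at 782.3, lies at the Ama promoter outside the Hox windows, 8 sites lie in the Antp window, and replicate 3 alone has ticks in clusters around lab.

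All 8 windows held a passing site, and 56.7% of the coding genes did so over their own windows. Hox genes are long, so density per 100 kb of window was set beside this. It was lowest for pb at 1.84 and highest for Antp at 6.51, with a median of 4.18 over the 8 genes, against a median of 3.87 over all coding genes (quartiles 0 and 6.82). Antp stood above 74.6% of coding genes and pb above 44.2%. Since 56.7% of coding genes had any site in the window, most of the genes below pb had a density of 0.

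In the lab and pb windows of the Antennapedia complex, passing sites were few and weak. lab, which patterns the head and midgut, had 1 passing site, in an intron 6200 bp downstream of its distal TSS, with a signal of 128.7 and rank 3788 of 3922. Its rank was 5120 in replicate 1, 4083 in replicate 2 and 3352 in replicate 3. pb, needed for the adult mouthparts, also had 1 intronic site, at rank 3882 and 18.0 kb from its TSS, with ranks 2828, 7435 and 1453 in replicates 1, 2 and 3. These sites lay near the threshold, since the lowest passing signal was 124.8 and the pb site had 126.0.

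Dfd, which specifies the maxillary and mandibular segments, had 1 passing site, 540 bp upstream of its only TSS and so beyond the 500 bp promoter limit. Its signal was 159.3 (rank 2984), it ranked 2014 in replicate 2 and 5798 in replicate 3, and replicate 1 had no summit within 150 bp. A second pooled summit, 340 bp upstream of the TSS, did not pass, with a signal of 108.7 and pooled rank 4548. The replicate 3 summit lay 398 bp upstream of the TSS and 142 bp from the passing site. It was within 150 bp of both pooled summits, so it may belong to either. Scr, which acts in the labial segment and the prothorax, had 2 passing sites, both downstream of the gene, 6217 and 4377 bp beyond its end. They ranked 3350 and 3729, and they were 1840 bp apart. The weaker of them ranked 14416 in replicate 1, 4641 in replicate 2 and 2020 in replicate 3. No passing site lay inside Dfd or Scr.

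Antp, the selector of thoracic identity, held the most sites of any Hox gene. Its 123.0 kb window held 8 passing sites, all within the gene, at 65.1 per Mb (95% exact Poisson interval 28.1 to 128.2), 2.22 times the density of the rest at 29.3 per Mb, which the interval includes. The N best gave 5 summits in replicate 1, 6 in replicate 2 and 12 in replicate 3, a mean of 7.67 ± 3.79 (SD, n = 3), and ratios of 1.39, 1.67 and 3.34. The N-best intervals of replicate 1 (13.2 to 94.9 per Mb) and replicate 2 (17.9 to 106.2) also included the rest, and that of replicate 3 (50.4 to 170.5) did not. Without the Antp window the other Hox windows held 14 passing sites, a ratio of 1.28, with N-best ratios of 0.729, 0.911 and 2.10.

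The 8 Antp sites spanned 46.0 kb and kept to the 3′ part of the transcription unit. Antp has 3 annotated TSSs. Downstream of the proximal TSS there were 5 sites, at that TSS 1, and between the proximal and the middle TSS 2, while the stretch from the middle to the distal TSS held 0 of the 8, which leaves the distal TSS 49.8 kb from the nearest of them. This holds for passing sites only. Between the middle and the distal TSS replicate 3 had N-best summits at ranks 3327, 3621 and 3798, and replicates 1 and 2 had none. A pooled summit there, with a signal of 82.5 and pooled rank 6024, did not pass. The strongest of the 8 sites, 18.3 kb downstream of the proximal TSS, had a signal of 373.0 and rank 843. It ranked 945 in replicate 1, 1598 in replicate 2 and 306 in replicate 3. It is the site whose sequence holds an Abd-B preferred match and a GAGA match. The next, 20.3 kb downstream, had a signal of 340.4 and rank 997, and ranked 1094, 883 and 1208. The annotation places these introns both in Antp and in CG46458, a gene that overlaps it.

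A further Antp site lay 201 bp from the second of these, at rank 2951, and its A and T rich sequence is the close neighbour printed above. A single replicate 1 summit was within 150 bp of both, replicate 2 ranked 1932 there and replicate 3 had none, so the pair may count as 1 region or 2. The site 29.4 kb downstream of the proximal TSS lay in an exon of the long non-coding RNA gene CR43252 within Antp, with a signal of 298.0 and ranks of 1162, 1866 and 748. The other intronic sites had ranks of 2170, 2455 and 3242 in the final list. The last of them ranked 4281, 9348 and 766 in the 3 replicates, which was the widest spread among the Antp sites found in all of them.

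The Antp promoter site was the only passing site within 500 bp of a Hox TSS. It lay 301 bp upstream of the proximal TSS, at chr3R:6932933-6933348, with a signal of 130.6 and rank 3735 of 3922. Its rank was 4163 in replicate 1, 4541 in replicate 2 and 4970 in replicate 3, so it was found in all 3 lists and in the N best of none. In those lists its signal was 25.7, 63.8 and 27.2. By distance of log10 rank over the 3 replicates, the passing promoter sites most alike were those of Cyp6t1 (0.111), wtrw (0.112) and Taz (0.113), which is a likeness of rank only.

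In the bithorax complex the strongest Hox site lay outside the genes. Ubx, which specifies the posterior thorax and anterior abdomen, had 4 passing sites in its window, 3 of them in introns at 16.2, 30.0 and 61.0 kb from its TSS. Their ranks were 3631, 2784 and 3850. The one 16.2 kb away ranked 1519 in replicate 3 and had no summit in replicate 1 or 2. The fourth lay at the promoter of CG10324 and CCT3, the latter a chaperonin subunit gene, 9477 bp beyond the 3′ end of Ubx, with a signal of 223.7 and ranks of 1513, 2430 and 2378.

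The abd-A window, around the gene for mid-abdominal identity, held the strongest of the 22 sites and no site inside abd-A. At chr3R:16798771-16799031, 8307 bp downstream of the gene and 1693 bp from the TSS of the long non-coding RNA gene CR45750, it had a signal of 495.5 and rank 506. It ranked 850 in replicate 1, 392 in replicate 2 and 662 in replicate 3, high in each list. The replicate signals were 80.0, 323.5 and 99.9. The second site, 7934 bp upstream of abd-A in an intron of MSAmiP and of iab8, ranked 2536, and its replicate ranks were 5052, 3045 and 1485.

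Abd-B, which patterns the posterior abdomen and genitalia, had 3 passing sites in its window. The strongest lay in an intron at chr3R:16958072-16958487, 2001 bp downstream of an Abd-B TSS, with a signal of 306.3 and rank 1196, and ranked 1391, 867 and 2126 in the replicates. A second intronic site, 1435 bp upstream of another Abd-B TSS, ranked 3853 in the final list and 2343, 3847 and 8671 in the replicates. The third lay in an intron of iab8, 7956 bp downstream of Abd-B, at rank 2835, with ranks of 4428, 3462 and 1566. The CTCF core printed above belongs to this site.

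**Figure D2:**
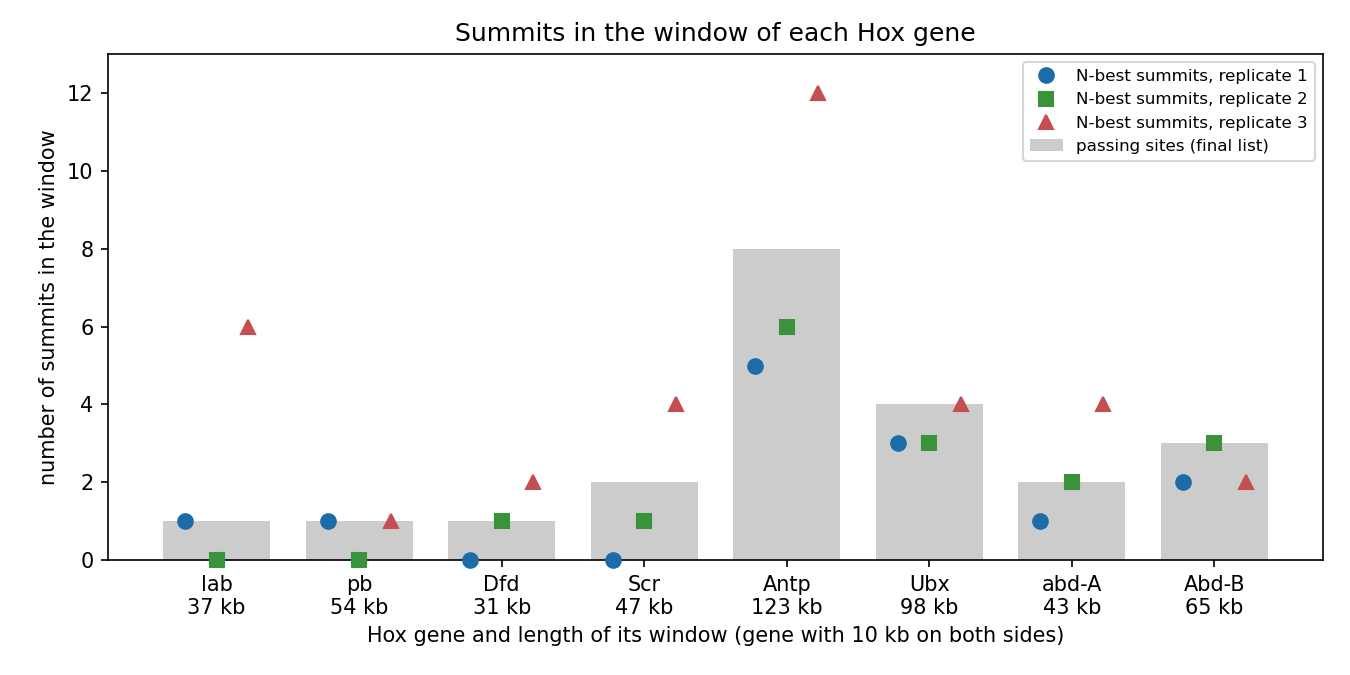
Number of summits in the window of each Hox gene: grey bars are passing sites of the final list and symbols are N-best summits of each replicate, with the window length in kb under each name. Antp has the most in the final list (8) and in every replicate (5, 6 and 12), while lab has 6 in replicate 3 against 1 and 0 in the others.

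Promoters of Hox genes were mostly free of passing sites, as were those of most coding genes. Of the 8 genes 1, Antp, had a passing summit within 500 bp of a TSS, against 15.9% of coding genes. Of the 19 annotated Hox TSSs 1 had such a summit, and no share over all TSSs was set beside this. In the pooled list lab, Dfd and Antp had a promoter summit, 3 of 8, against 32.2%. In the N best, replicates 1 and 2 gave 0 of 8 genes, against 14.3% and 16.5%, and replicate 3 gave 1, lab, against 14.3%. With counts this small the Hox share cannot be placed above or below these shares.

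The whole replicate lists, which include background, differed more at Hox promoters. Replicate 1 had a summit at 1 of 8 genes (Antp) against 32.8% of coding genes, replicate 2 at 3 of 8 (Dfd, Antp and abd-A) against 36.2%, and replicate 3 at 7 of 8, all but abd-A, against 38.5%. Replicate 3 had 11 summits within 500 bp of Hox TSSs, at ranks from 1730 to 25827 with a median of 8398. Of these, 9 had no summit of another replicate within 150 bp, against 61.5% of all summits of replicate 3. The best of the 9 was at lab, 310 bp downstream of the proximal TSS. Only this lab summit was in the N best of replicate 3.

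Most passing sites lay in introns. Of the 22 sites 15 were intronic, 68.2% (95% exact binomial interval 45.1 to 86.1), against 34.9% of all passing sites. Promoters held 2, or 9.09% (1.12 to 29.2), against 46.6% of all passing sites, and these were the promoters of Antp and of CG10324 with CCT3. With other flanks the share was 5.88% (5 kb) and 14.3% (20 kb). With promoters cut at 250 bp it was 4.55% against 34.4% of all passing sites, at 1000 bp 18.2% against 57.4%, and with the 5′-most TSS alone 4.55% against 38.2%. Among pooled regions with q under 0.05 it was 7 of 38, 18.4%, against 41.4%, and in the 50% with the highest signal 1 of 6 against 53.5%. The Hox share was the lower at each of these settings. Intergenic sequence held 4 (18.2%, against 16.3%) and exons 1. The sequence of the windows itself was 58.7% intron and 11.3% promoter, against 39.4% and 13.6% over the arms. The share of promoters among the sites was thus near their share of the Hox sequence, whereas over all passing sites it was far above it. Low promoter shares were not particular to the Hox windows, as the values of other gene lists below show. No test was made of these differences.

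The N best of the replicates gave the same order. In Hox windows 12.2% ± 3.42 (SD, n = 3) of N-best summits were at promoters and 67.7% ± 4.65 in introns, against 44.4% ± 3.21 and 35.6% ± 2.24 over all N-best summits. For both classes every replicate's Hox share lay beyond the range of the 3 shares over its whole N best. In the pooled list 10.2% of 88 Hox summits were at promoters, against 25.2% of all.

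**Figure D3:**
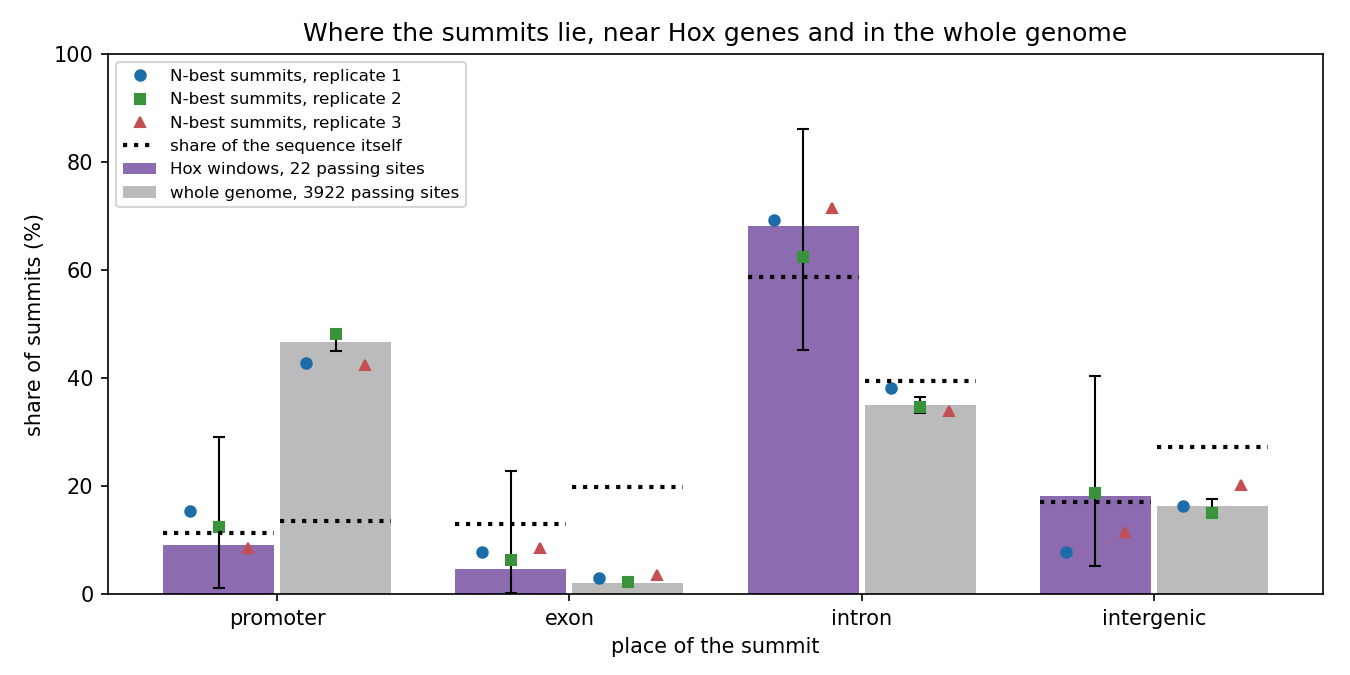
Share of passing sites (bars, with 95% exact binomial intervals) and of N-best summits of each replicate (symbols) in promoters, exons, introns and intergenic sequence, in Hox windows (purple) and over all passing sites (grey), with the share of the sequence itself as dotted lines. In Hox windows promoters hold 9.09% and introns 68.2%, against 46.6% and 34.9% over all passing sites.

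Most sites were far from the Hox promoters. The median distance to the nearest Hox TSS was 17.1 kb, 14 of the 22 sites were over 10 kb away, and 4 were within 2.5 kb. These distances were not set beside those of other positions in the windows. TSSs of other genes could be much nearer, such as 142 bp from the site at CG10324 and 524 bp from the stronger site in the Scr window. Of the sites, 15 lay inside a Hox gene, 13 of these in its introns, and 7 lay beyond one. Of the 88 pooled summits in the windows 22 passed, against 20.9% of the whole pooled list. Just below the threshold, signals were 123.8 at the promoters of lncRNA:CR45750 and lncRNA:TS16 in the abd-A window and 120.1 at the promoters of CG1307 and twr in the lab window.

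The Hox sites were weak among passing sites. Their median rank was 2893, at 73.8% of the list, with 2 sites in the first 25% of the list and 11 in the last 25%. Their median signal was 163.4, against 218.4 over all passing sites. In the replicates the median rank was 2585.5 over the 20 sites found in replicate 1, 3045 over 21 in replicate 2 and 1600 over 21 in replicate 3, so replicate 3 placed them highest. Among the gene lists described below, median final rank was at 60.8% for Hox cofactors, 62.6% for target genes and 60.7% for gap and pair-rule genes. It was at 36.5% for other homeobox selectors, 34.1% for other Antennapedia complex genes, 31.4% for the Polycomb group, 42.0% for the trithorax group and 28.9% for boundary factors.

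All 3 replicates held 19 of the 22 sites, 86.4% (95% exact binomial interval 65.1 to 97.1), against 87.1% of all passing sites. The exceptions were the close neighbour in Antp, absent in replicate 3, the Dfd site, absent in replicate 1, and the Ubx site seen in replicate 3 alone. In the N best of all 3 were 8 sites, 36.4% (17.2 to 59.3), against 56.9%. These were the 8 with the highest signal: 5 in Antp, and 1 each in the windows of abd-A, Abd-B and Ubx. Spearman's rho of rank over the sites was 0.766 for replicates 1 and 2 (20 sites), 0.433 for replicates 1 and 3 (19) and 0.275 for replicates 2 and 3 (20), as a description, since all sites come from the same 3 libraries.

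**Figure D4:**
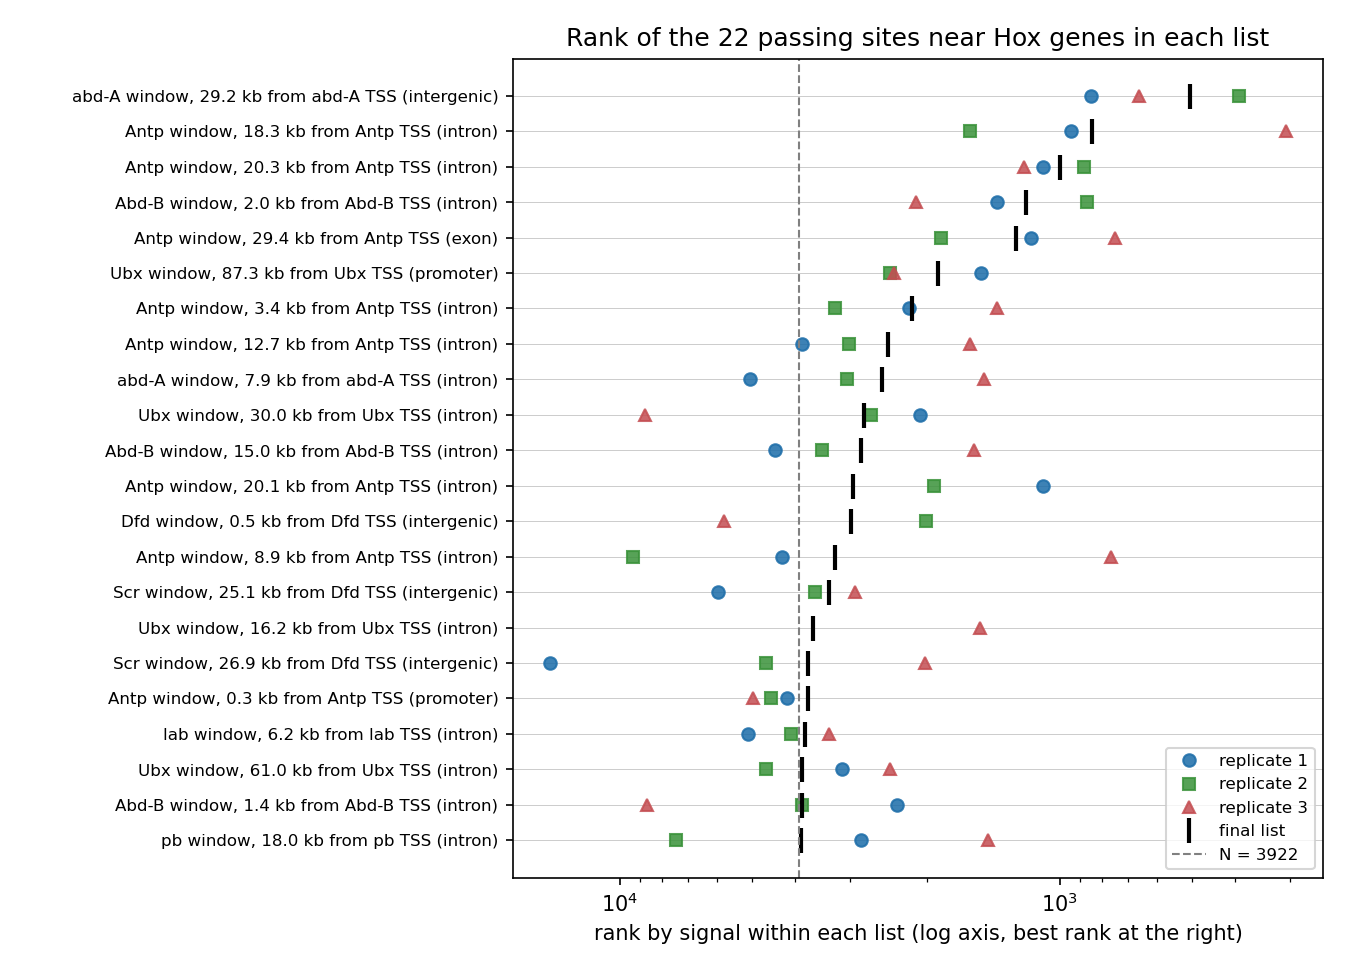
Rank by signal of the 22 passing sites in the final list (black bars) and in each replicate (symbols), on a log axis with the best rank at the right and a dashed line at N = 3922. The 8 strongest sites lie to the right of the line in all 3 replicates, and the lower sites spread on both sides, with a missing symbol where a replicate has no summit.

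Replicate 3 had the most summits in the windows. Over whole lists the windows held 105 summits of replicate 1, 84 of replicate 2 and 158 of replicate 3, at ratios to the rest of 0.942, 1.03 and 1.56. Summits with no match in another replicate made up 50.5%, 34.5% and 62.7% of these, against 63.1%, 45.6% and 61.5% of the whole lists. The share in replicate 3 was thus near that of its whole list. Among the N best, 18 of the 35 replicate 3 summits (51.4%) were not at a passing site, against 26.5% of all its N best. In replicate 1 it was 1 of 13, against 19.05%, and in replicate 2 it was 1 of 16, against 8.90%, so the 3 lists also differ over the whole genome. Around lab, 4 such summits of replicate 3 alone, between 6663144 and 6667458, ranked from 871 to 1932. Whether these mark binding was not tested.

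Matches to 9 motifs were counted as exact letters on either strand, up to 50 bp from the summit, each motif on its own, so that matches of different motifs may overlap. The homeodomain core TAATTA, the letters that Hox and many other homeodomain proteins bind, was at 3 of 22 sites, against 431 of all 3922 passing sites and 5.30% of windows of the same length 450 bp away. GAGAG, bound by the GAGA factor Trl, was at 4, against 8.41% and 15.1%. The Exd-Hox composite TGATNNAT, for Hox with its cofactor Exd, was at 1, against 9.15% and 5.74%. The Pho core GCCAT was at 1, against 12.1% and 18.2%, and the Abd-B preferred TTTATGG at 1, against 2.80% and 2.37%. The CTCF core AGNNGGCG was at 1, against 2.70% and 5.81%. The Zelda motif CAGGTAG was at 1, against 0.382% and 0.841%. GATAAG and the DNA replication-related element TATCGATA were at 0, against 196 and 37 of all 3922 passing sites. In the 22 windows 450 bp from the Hox summits, GAGAG was at 7, more than at the summits themselves. There GCCAT was at 5, TTTATGG at 4, TGATNNAT at 3, AGNNGGCG at 2 and TAATTA at 1, and the other 3 motifs at 0. With 22 sites, 0 matches have an upper 95% exact binomial limit of 15.4%.

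By median, GC content at the Hox summits was below that of the Hox windows as a whole. The median GC content at the 22 Hox summits was 30.7%, the same as over all passing summits, while tiles of the same length over the Hox windows had a median of 42.6%. Among the Hox sites it ran from 12.9% at the close neighbour in Antp to 55.4% at the iab8 site. The strongest site, in the abd-A window, was also GC-rich at 52.5%.

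Other genes that act with the Hox genes were counted in the same way, to be read against the 15.9% of coding genes with a passing promoter summit and the 56.7% with one in the window. The other genes of the Antennapedia complex (bcd, zen, zen2, ftz and Ama) had 46.8 passing sites per Mb (95% exact Poisson interval 9.66 to 136.9), which rests on 3 sites that the windows of bcd, zen and Ama share. Of these 5 genes, bcd and Ama had promoter sites, of which Ama, a secreted adhesion protein gene, had a signal of 782.3 and rank 194. The 6 Hox cofactors had 32.5 per Mb (15.6 to 59.7) and 0 promoter sites, and 4 had a site in the window, near the background share. The 13 target genes had 17.9 per Mb (8.57 to 32.9) and 1 promoter site, at fkh. The 17 gap and pair-rule genes, which set up Hox expression, had 29.9 per Mb (15.9 to 51.2) and 1 promoter site, at cnc. The 22 other homeobox selector genes had 18.7 per Mb (9.98 to 32.0) and 2, at tin and so.

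Regulators that maintain Hox states, or delimit their domains, were described likewise, against the same 15.9%. The Polycomb group had 64.3 passing sites per Mb (43.7 to 91.3) and promoter sites at 6 of 19 genes, the strongest at ph-p (2757.7), E(z) (775.4), Su(z)12 (332.3) and Sfmbt (301.3). Of the 31 passing sites of this list, 9 lay in the ph-p window, and 12 of the 19 genes had a site in the window. The trithorax group had 63.3 per Mb (43.3 to 89.4) and promoter sites at 5 of 13, led by brm (910.5), Trl (425.8), mor (267.2) and skd (235.6). Of 13 boundary factors 3 had one, Cp190 (985.3), BEAF-32 (303.8) and su(Hw) (145.7), near the background share, at 42.2 sites per Mb (21.1 to 75.5). Promoters held 67.7% of the Polycomb group's passing sites and 9.09% of those in Hox windows. This share was 0% for the Hox cofactors, 20% for the target genes and 23.1% for the gap and pair-rule genes. For the other homeobox selector genes it was also 23.1%. These 4 shares rest on 10 to 13 sites each. The trithorax group had 43.75%, the other Antennapedia complex genes 66.7% and the boundary factors 100%, against 46.6% of all passing sites. The N-best ratios to the rest were 2.28, 2.42 and 2.28 for the Polycomb group, against 0.892, 1.10 and 2.41 for the Hox genes. Replicate 3 was also highest for the cofactors (1.11, 0.775 and 1.89) and the target genes (0.670, 0.609 and 1.22). The same held for gap and pair-rule genes (1.02, 0.785, 1.65), other homeobox selector genes (0.589, 0.540, 1.48) and boundary factors (1.57, 1.44, 1.70). It did not for the trithorax group (2.10, 2.58, 2.03) or the other Antennapedia complex genes (2.13, 1.60, 1.60). No test was made of the differences between lists.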

How the data were processed

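The members, gene lists and motifs were chosen with earlier results of these data known. Called regions were deposited by the authors for dm6 as narrowPeak lists: 1 relaxed list per replicate, 1 for the pool of the 3 and 1 final list at an irreproducible discovery rate threshold, per the deposited README text. Signal is the authors' own value per region, of unstated scaling, and was used only within a list. The −log10 q-values deposited by the authors served only to set q under 0.05 as an alternative. No source used here names the aligner, the peak caller, a version or the threshold. Lists on dm3 were not used here.

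Summits were placed by Ensembl release 115 (BDGP 6.54, dm6 coordinates, transposons left out) with priority promoter (within 500 bp of any gene's TSS), exon, intron, intergenic, and counted as shared within 150 bp. Overlapping windows were merged. Sequences came from the RefSeq genome of the same build. The named genes are the 8 members, genes that name a site in the windows, up to 4 bound members of each list with the highest signal, and the 3 promoter sites most alike to the Hox promoter site. With 1 group, no test was made, and values are counts with 95% exact Poisson or binomial intervals, which cover counting error only. Depth is unknown. Whether the biological replicates are separate collections is not stated in the labels. Alternatives changed the flank, promoter distance, sharing distance, list threshold, motif window and replicates. Python 3.11.15, pandas 2.3.3, numpy 2.4.6 and SciPy 1.17.1 were used. The promoter and sharing steps were run on simulated summits made within the distances that were then checked, which tests the code alone. Exon, intron and intergenic placement was not tested in this way.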

Additional observations from a re-analysis of the deposited data

How the results depend on the processing

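Of 61 alternatives, 18 moved a value beyond the tolerance: 1.5 times for a count, 1 SD for a mean over replicates and the 95% binomial interval for a share. That interval is wide with 22 sites, so shares within it still changed up to several times, such as the CTCF core from 4.55% to 18.2% within 150 bp of the summit. Keeping the 50% of the final list with the highest signal left 6 passing summits, 4 Hox genes with a passing summit in the window (in brackets, here and below, the share of all coding genes: 39.5%), 0 with a promoter summit (9.76%), 9.33 N-best summits on average and 100% of sites found in all 3 replicates. Taking pooled regions with q under 0.05 instead gave 38 summits, 2 promoter genes (20.7%) and 35.7 N-best summits. With no flank, 53 pooled summits and 5 genes with a passing summit (9.69%) were counted. Promoter genes numbered 0 within 250 bp (12.1%), 2 within 1000 bp (18.4%) and 0 with the 5′-most TSS alone (13.9%). The share of sites found in all 3 replicates was 45.5% when sharing needed 50 bp and 36.4% with N-best summits alone. Within 150 bp of the summit TAATTA was at 36.4%, GAGAG at 40.9% and GCCAT at 31.8% of Hox sites, against 25.1%, 32.6% and 36.2% of all passing sites. Leaving out each replicate gave 14.5 to 25.5 N-best summits on average, the lowest without replicate 3, and 86.4% to 90.9% of sites found in all remaining lists. The ratio of passing density to the rest was 0.823 in that 50% and 1.70 at q under 0.05. Added after the data were seen, both complexes taken whole held 30 passing sites, and summits within 300 bp counted as 1 left 21. The causes were not tested. No paired analysis was possible because there is 1 group. Depth is unknown, so what it limits cannot be given.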

Other observations

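Beyond the Hox windows, 8 further passing sites lay in the Antennapedia and bithorax complexes. The promoters of bcd, the maternal anterior determinant, and Ama had signals of 285.3 and 782.3, and an intergenic site near Ama had 167.3. Between Scr and Antp, the intron of lncRNA:CR44931 held a site of signal 272.0, with ranks of 1283, 2172 and 675 in replicates 1, 2 and 3. In the bithorax complex, the intron of lncRNA:bxd, a non-coding gene upstream of Ubx, held a site of 177.4, a site near Glut3 had 206.5, and the iab8 transcription unit held sites of 206.5 and 164.4. All 8 had a summit in every replicate list.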
